A study of Mus musculus with 33 samples.

Results

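The coding segments of 1528 protein-coding genes were described here as places where RNA was crosslinked in precipitates of hnRNP R, a member of the heterogeneous nuclear ribonucleoprotein family of RNA-binding proteins. A gene was a member when its open reading frame (ORF) segment held at least 10 cDNAs, summed over 4 iCLIP libraries made with antibody 1 from unfractionated cells. Those libraries were motoneuron replicates 1 and 2 and NSC34 replicates 1 and 2. The members were 1528 of 22439 protein-coding genes in the annotation and of 8742 with at least 1 ORF cDNA in the same libraries. Because summed ORF cDNAs chose the members, their high counts are a description and no finding.

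The series held 33 libraries, of which 22 were RNA-seq libraries that were not analysed here and 11 were iCLIP libraries. Primary wildtype motoneurons from CD-1 mice gave 2 unfractionated libraries and 1 cytoplasmic and 1 nuclear library, all with antibody 1 against hnRNP R. NSC34 is a mouse hybrid line of neuroblastoma and spinal cord motoneurons. It gave 2 unfractionated libraries and 1 cytoplasmic and 1 nuclear library with antibody 1, 1 cytoplasmic and 1 nuclear library with antibody 2, and 1 unfractionated library with IgG. No cells of the iCLIP groups carried a knockdown or received a treatment by their labels. NSC34 replicates come from 1 line, and no label says whether replicates came from separate cultures or animals, so the p-values below measure the spread between libraries, which may be technical. All IgG and fraction groups held 1 library.

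In iCLIP, ultraviolet light links a protein to the RNA it touches, the protein is precipitated, and the cDNA made from the RNA stops near the link. Each counted cDNA therefore marks a crosslink event in a segment of a gene, here the ORF or the 3′ untranslated segment (3UTR). Proteins of the hnRNP family bind nascent transcripts in the nucleus, and several accompany mRNA into the cytoplasm. In motoneurons hnRNP R is known for its presence in axons and for its interaction with the SMN protein and the noncoding RNA 7SK. A coding segment is exposed to RNA-binding proteins before translation and is crossed by ribosomes during it. A count depends on how much of a transcript is present as well as on how much of it is bound, and in these libraries the 2 cannot be told apart.

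Libraries held between 2796 and 456721 cDNAs, and ORF cDNAs made up 2.52% to 14.1% of them. NSC34 replicate 1 supplied 52.0% of the members' ORF cDNAs in the 4 libraries, against 17.6% and 19.1% from motoneuron replicates 1 and 2 and 11.2% from NSC34 replicate 2. Between replicates of one group the members' ORF counts differed by more than sampling noise (chi-square per degree of freedom 1.36 for motoneurons and 1.12 for NSC34), so each library was counted as its own sample. In the file of the IgG control, the header gives hnRNP R as the protein and the same library number as NSC34 replicate 2, so only the title marks it as IgG. Of 10 motoneuron marker genes in the tables, 9 were at 0 cDNAs over all segments in both unfractionated motoneuron libraries, among them Chat, Isl1, Mnx1, Prph and Nefh. The list summed to 4 and 6 cDNAs in the motoneuron libraries, all of Ret, and to 283 and 52 in the NSC34 libraries and 32 with IgG. The astrocyte markers summed to 200 and 129 against 96 and 14 cDNAs, mostly of Slc1a2 (188 and 108 against 96 and 14). Slc1a3 held 11 and 9, Gja1 0 and 10 and Aldh1l1 1 and 2 in motoneurons, each against 0 and 0 in NSC34. Gfap, Aqp4, S100b and Aldoc were at 0 in all 4. Oligodendrocyte, microglia and fibroblast markers summed to 20 or fewer each in every one of these libraries. The motoneuron libraries are called by their label below, although 9 of the 10 markers were at 0 in both unfractionated libraries. The 2 motoneuron fraction libraries held 1 to 2 cDNAs of Chat, Isl1, Lhx4, Nefh and Ret.

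Coding segments of members carried few cDNAs each. The sum over the 4 libraries ran from 10 to 536 with a median of 16, and the middle range between quartiles was 12 to 26. There were 936 members with 10 to 19 cDNAs, 122 with at least 50 and 36 with at least 100. Together they held 38036 of 59900 ORF cDNAs (63.5%), and the 10 highest held 7.44% of the members' own. ORF cDNAs occurred in all 4 libraries for 941 members, in neither motoneuron library for 69 and in neither NSC34 library for 45. At the threshold stood 158 members with exactly 10 cDNAs, such as Aasdhppt with 3, 3, 4 and 0 in motoneuron replicates 1 and 2 and NSC34 replicates 1 and 2. Just below it stood 224 genes with 9, such as 2700050L05Rik with 2, 0, 6 and 1. These 2 sets are separated by a single cDNA.

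Long coding segments were frequent among members. The rule summed cDNAs without dividing by length, which favours long segments, so this is a description and no finding. The ORF segment, whose length follows from the deposited counts and densities, had a median of 4224 bases in members (222 to 28686) and of 2052.5 bases in the 7214 other protein-coding genes with an ORF cDNA. Across members the rank correlation of summed cDNAs with length was 0.247, a description over 1528 genes that share the same libraries. Only 37.7% of the members' ORF segments had a length that is a multiple of 3, so most segments are not the reading frame of a single transcript. Per kilobase of segment, members held a median of 4.39 ORF cDNAs (0.428 to 468.5).

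Among the 10 members with the most ORF cDNAs were mt-Cytb, Ogt, Eif4g2, Hnrnph1, Inpp5f, mt-Nd6, mt-Nd5, Zranb2 and Ttc3. Their functions fall into a few groups: mitochondrial respiratory chain subunits, RNA-binding and splicing proteins, a translation factor, and enzymes or signalling proteins. In each account below, counts are given for motoneuron replicates 1 and 2, then NSC34 replicates 1 and 2, then IgG.

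Mitochondrially encoded messages gave the densest coding segments. The segment of mt-Cytb, which encodes cytochrome b of respiratory complex III (mitochondrial genome, bases 14145 to 15288, plus strand, mm9), held 17, 26, 436 and 57 ORF cDNAs and 13 with IgG. That of mt-Nd6, a complex I subunit encoded on the opposite strand (bases 13552 to 14070), held 3, 6, 211 and 21, and 28 with IgG. Counts were low in both motoneuron libraries and high in both NSC34 libraries. Scaled to library size, in cDNAs per 1000000 cDNAs of the library (CPM), mt-Cytb stood at 47.4, 81.4, 954.6 and 571.4 against 358.3 with IgG, and mt-Nd6 at 8.36, 18.8, 462.0 and 210.5 against 771.8. The IgG library thus lay below both NSC34 libraries for mt-Cytb and above all 4 hnRNP R libraries for mt-Nd6. All 7 mitochondrial members ranked among the 10 highest per kilobase, with 468.5 for mt-Cytb, 464.4 for mt-Nd6 and 171 to 84.6 for mt-Nd1, mt-Nd5, mt-Nd2, mt-Co1 and mt-Nd4. They made up 1.43% and 1.35% of the members' ORF cDNAs in motoneurons, 5.87% and 3.99% in NSC34 and 4.50% with IgG.

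RNA-binding proteins were among the highest members on the nuclear genome. Hnrnph1, an hnRNP protein that regulates splicing (chromosome 11, bases 50190492 to 50200030, plus strand), held 61, 39, 128 and 29 ORF cDNAs, and 6 with IgG. Zranb2, a zinc finger splicing factor (chromosome 3, bases 157197124 to 157211354, plus strand), held 41, 52, 94 and 21, and none with IgG. Scaled to library size, Hnrnph1 stood between 122.1 and 290.7 CPM in the 4 hnRNP R libraries and Zranb2 between 114.2 and 210.5, higher in both NSC34 than in both motoneuron libraries on this scale. Under TMM scaling the log2 differences, motoneuron over NSC34, were 0.04 for Hnrnph1 and 0.38 for Zranb2, so their direction depends on the scaling.

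The remaining leaders encode a glycosyltransferase, a translation factor, a phosphatase and a ubiquitin ligase. Ogt, the enzyme that adds O-GlcNAc to proteins (chromosome X, bases 98835399 to 98879690, plus strand), held 92, 104, 148 and 38 ORF cDNAs, and 3 with IgG. Eif4g2, a translation factor related to eIF4G (chromosome 7, bases 118214082 to 118226531, minus strand), held 35, 52, 206 and 30, and 3 with IgG. Inpp5f, a phosphoinositide phosphatase (chromosome 7, bases 135754842 to 135839939, plus strand), held 23, 52, 146 and 24, and 4 with IgG. All 3 were higher in CPM in each hnRNP R library of NSC34 than with IgG. In Inpp5f, motoneuron replicate 1 lay below the IgG level (64.1 against 110.3 CPM). Ttc3, a ubiquitin ligase with tetratricopeptide repeats (chromosome 16, bases 94592225 to 94690829, plus strand), held 78, 85, 19 and 5, and 1 with IgG. It was the only one of these 9 with higher CPM in both motoneuron libraries than in both NSC34 libraries.

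**Figure D1:**
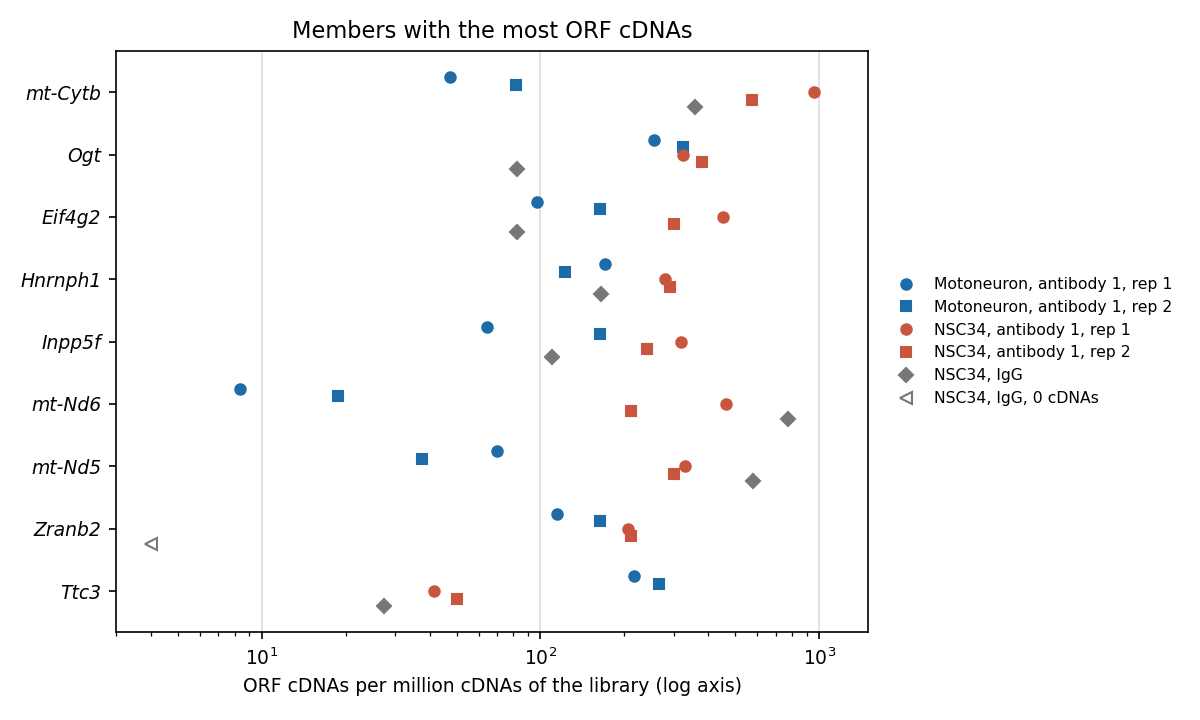
ORF CPM (log axis) for 9 of the 10 members with the most ORF cDNAs, 1 point for each of the 5 unfractionated libraries; the open triangle marks 0 cDNAs and has no value on the axis. The 3 mitochondrial genes sit low in both motoneuron libraries, Ttc3 sits low in NSC34, and IgG lies above all hnRNP R libraries for mt-Nd6 and mt-Nd5.

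Hnrnpr itself was a member, with 3, 7, 10 and 1 ORF cDNAs and 1 with IgG. Its close relative Syncrip, also called hnRNP Q, was not: its ORF segment held 2, 0, 4 and 2 cDNAs, and its 3UTR held 142 over the 4 libraries. Gap43, a growth cone protein, was the densest member outside the mitochondrial genome at 94.99 ORF cDNAs per kilobase, with counts of 41, 59, 24 and 5 and none with IgG. No 3UTR length could be recovered for Gap43, so the tables do not show whether a 3UTR segment was annotated, and whether its ORF segment includes untranslated bases was not tested.

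Against the 3UTR, the ORF held more cDNAs in 1053 members, fewer in 457 and as many in 18. The ORF share, defined as ORF cDNAs over ORF plus 3UTR cDNAs, had a median of 73.7% over members (3.125% to 100%). The share of pooled cDNAs is another measure. Within each of the 4 libraries it was 51.0% to 57.1% for members and 33.3% to 42.7% for all protein-coding genes. Over the 4 libraries together the pooled share of all protein-coding genes was 39.1%. Since members were chosen by their ORF count, their higher pooled share follows from the rule and is not a finding. The count also reflects the longer segment. In the 1172 members whose 3UTR length could be recovered, the ORF was denser than the 3UTR in 281, and the medians were 4.66 ORF and 9.32 3UTR cDNAs per kilobase. Pooled over these genes, 4.94 ORF cDNAs per kilobase stood against 13.9 3UTR cDNAs. By number the coding segment led in most members, and by density the 3UTR led in most of those that could be compared. A 3UTR length could be recovered only where the 3UTR held a cDNA, so the 356 members with none in any library were left out. This selection favours the 3UTR in the comparison of densities. Whether ORF segments include untranslated bases, which would change their density, was not tested.

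**Figure D2:**
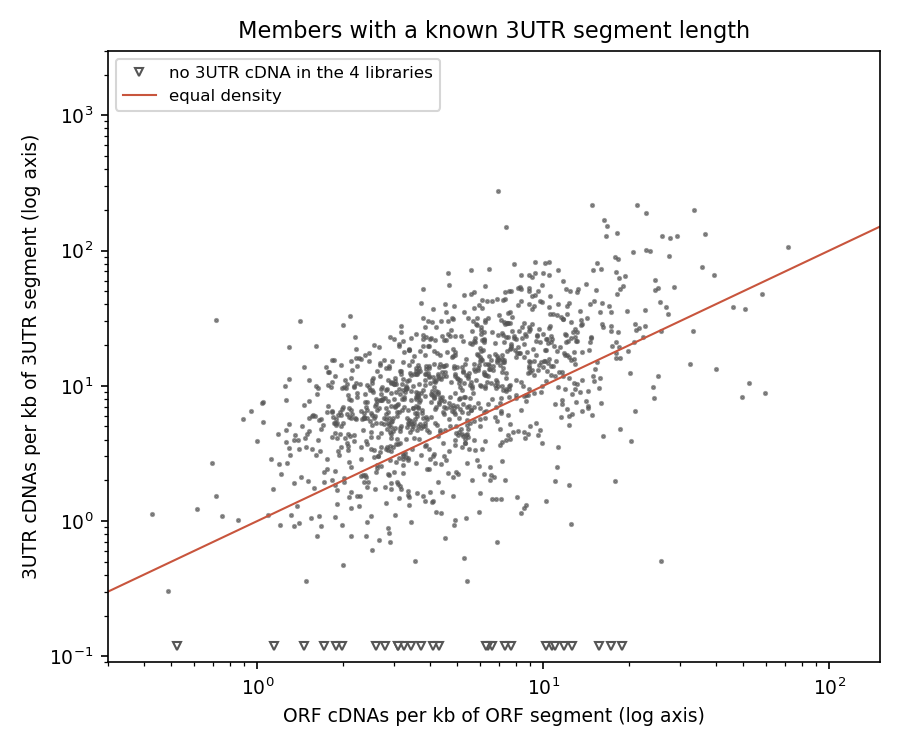
Density of cDNAs in the 3UTR segment against density in the ORF segment (cDNAs per kilobase over the 4 libraries, both axes log), 1 point for each of the 1172 members with a known 3UTR length; open triangles had no 3UTR cDNA in the 4 libraries and are placed at the bottom edge. Of these, 281 lie below the line of equal density, and the 356 members with no 3UTR cDNA in any library have no point.

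Members at either end of the range differed in which segment was crosslinked. Of 1065 members with at least 20 ORF plus 3UTR cDNAs, 148 had a share of 100%, led by mt-Cytb, Hnrnph1, Inpp5f, mt-Nd6 and mt-Nd5. The lowest share belonged to Scd2, a fatty acid desaturase, with 18 ORF and 558 3UTR cDNAs (3.125%). Slc8a1, a sodium-calcium exchanger, followed with 13 and 270, Hdgfrp3 with 11 and 155, Ppp1cb, a catalytic subunit of protein phosphatase 1, with 21 and 284, and Tardbp, which encodes the RNA-binding protein TDP-43, with 10 and 127. In all 5 the 3UTR was also the denser segment, with 152.5 against 16.7 cDNAs per kilobase in Scd2 and 25.1 against 6.60 in Tardbp. A share of 100% has a limit: 356 members had no 3UTR cDNA in any of the 11 libraries, and their tables then do not show whether a 3UTR segment was annotated at all. Their ORF segments had a median of 4716.5 bases, against 4085.5 in the members with a recovered 3UTR length.

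The share of members' cDNAs that fell in the ORF was lower in motoneurons than in NSC34. It was 51.5% and 51.0% in motoneuron replicates 1 and 2, and 57.0% and 57.1% in NSC34 replicates 1 and 2. The groups did not overlap, and the means were 51.3% ± 0.40 and 57.1% ± 0.039 (SD, n = 2 each). The difference of -5.82 percentage points gave an exact two-sided permutation p of 0.333, the smallest that 2 libraries against 2 allow. The IgG library lay above all hnRNP R libraries at 72.1% (Wilson 95% interval 70.4% to 73.7%, for counting error only). ORF cDNAs made up 3.03% and 3.42% of all cDNAs in motoneurons, 6.84% and 6.87% in NSC34 and 12.1% with IgG. The IgG value was the highest of the 5 unfractionated libraries. The median of the members' own shares was 55.6% and 57.1% in motoneurons and 74.1% and 55.6% in NSC34, where the groups overlapped (difference -8.48 points, exact two-sided permutation p = 1). Without the members that lacked any 3UTR cDNA the difference in the pooled share between cells was -4.77 points. The rule for members summed ORF counts of these same motoneuron and NSC34 libraries. NSC34 replicate 1 supplied 52.0% of the members' ORF cDNAs, so the rule favoured genes with many ORF cDNAs there. Over all protein-coding genes, not chosen by the rule, the pooled share was 35.6% and 33.3% in motoneurons and 42.4% and 42.7% in NSC34 (difference -8.09 points).

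**Figure D3:**
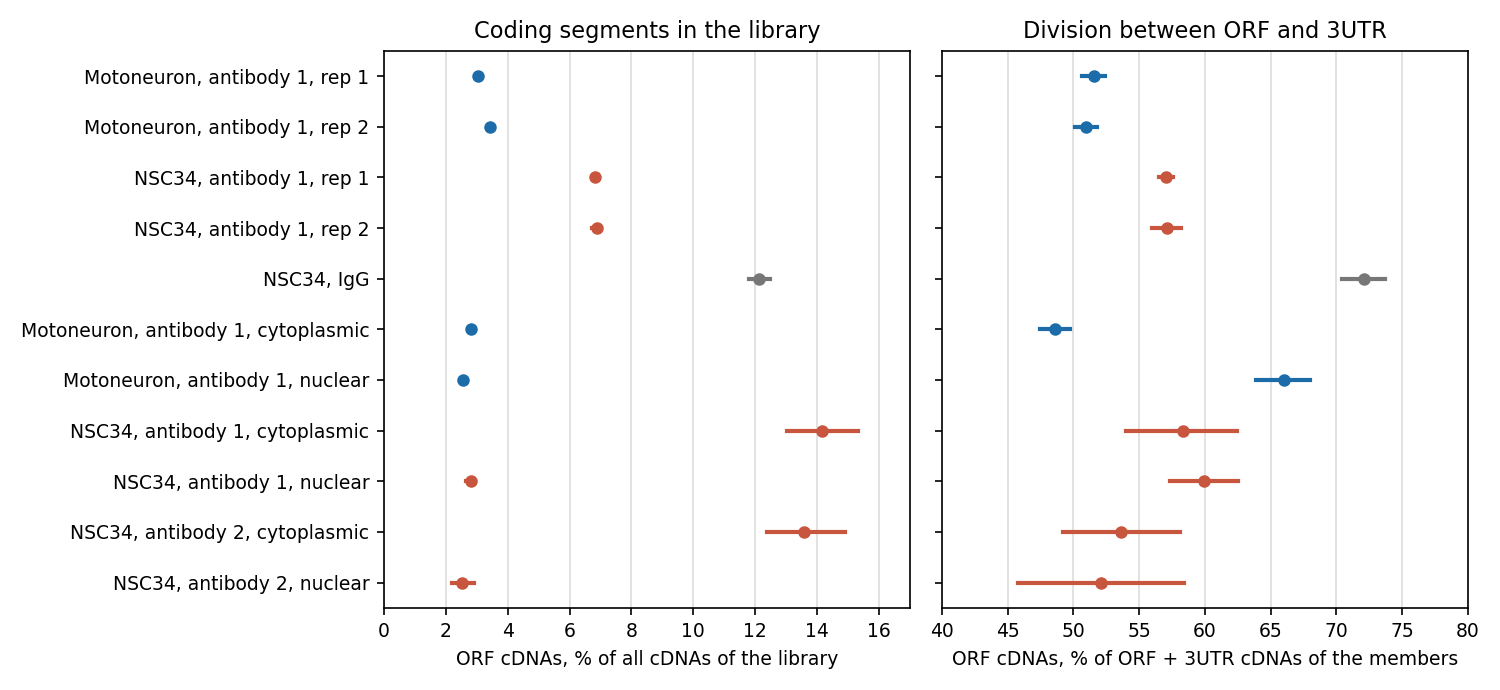
Left, ORF cDNAs of all genes as a percent of all cDNAs in each of the 11 libraries; right, ORF cDNAs of the members as a percent of their ORF plus 3UTR cDNAs (axis from 40%). Lines are Wilson 95% intervals for counting error only, and the IgG library lies above all others on the right at 72.1%.

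Gene by gene, the division between ORF and 3UTR was compared between cells with the feature-level test of edgeR's diffSpliceDGE. It was made in 692 members with at least 10 cDNAs in both segments, and 0 passed an adjusted p of 0.05. The background over all 732 genes with both features was 0%. At an unadjusted p under 0.05 there were 22 of the 692 members, a smaller part than that threshold passes on average when no gene differs. In 21 of the 22 the ORF was lower relative to the 3UTR in motoneurons, given as a description. The lowest adjusted p was 0.557 by edgeR, shared by Serinc1 and Elavl4, both named after their values were seen. Elavl4, a neuronal RNA-binding protein, held 0, 0, 11 and 3 ORF cDNAs beside 24, 32, 67 and 10 3UTR cDNAs. Serinc1, a membrane protein, held 1, 1, 23 and 4 beside 46, 80, 136 and 35. In both genes the motoneuron libraries held at most 1 ORF cDNA each while their 3UTR was well covered.

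Between cells, ORF counts of 279 members differed in edgeR's quasi-likelihood test with Benjamini-Hochberg adjustment over all ORF and 3UTR features. That is 18.3% of the 1528 members, and the background over all 4052 features was 22.3%. Of these members, 125 were higher in motoneurons and 154 in NSC34, where the background was 13.4% and 8.93%. The median log2 difference, motoneuron over NSC34, was -0.35 over members, -0.17 over all features and 0.00 over 3UTR features. The filter on low counts is close to the rule for members, so a gene seen in 1 cell only had to be high there to be counted, and the numbers describe this set. Scaling by all cDNAs of the library instead of TMM moved the median to -1.30 and the split to 66 higher in motoneurons and 400 higher in NSC34. DESeq2 called 25 members, all among the 279. The sum of the astrocyte markers given above was also higher in the motoneuron libraries, and the part of such cells in these differences was not tested. Without NSC34 replicate 1 there were 46, without motoneuron replicate 1 162 and without motoneuron replicate 2 141.

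Mtap2, Rtn1, Grik2, Ttc3 and Ebf1 had the lowest adjusted p among members higher in motoneurons. Mtap2, which encodes the dendritic microtubule-associated protein MAP2, held 81 and 61 ORF cDNAs in motoneurons and 8 and 0 in NSC34, with a log2 difference of 4.82 ± 0.51 (SE) and an adjusted p of 1.3e-18 by edgeR. Ttc3 stood at 3.41 ± 0.42 (adjusted p 1.3e-13 by edgeR). In both the groups did not overlap. Rtn1, a reticulon of the neuronal endoplasmic reticulum, held 29 and 53 against 0 and 0. Grik2, a kainate receptor subunit, held 38 and 42 against 0 and 0. Ebf1, a transcription factor of neuronal differentiation and of B cells, held 33 and 15 against 0 and 0. With a floor of 3 cDNAs over both NSC34 libraries and library totals as the scale, Rtn1 was at least 22.4-fold, Grik2 at least 21.9-fold and Ebf1 at least 13.1-fold higher in motoneurons. These 3 genes became members and passed the filter through their motoneuron counts alone, so they are given as values. Ebf1 was the only one of the 10 leading genes of this comparison that DESeq2 did not call.

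In the other direction the lowest adjusted p belonged to mt-Nd6, mt-Cytb, Tmtc2, Top2a and Ccrn4l. The log2 difference was -3.76 ± 0.48 for mt-Nd6 (adjusted p 6.2e-13 by edgeR) and -2.64 ± 0.36 for mt-Cytb (1.0e-11). Top2a, the DNA topoisomerase of dividing cells, held 0 and 2 ORF cDNAs in motoneurons and 67 and 11 in NSC34 (-4.39 ± 0.74, adjusted p 1.2e-07 by edgeR). Tmtc2, a mannosyltransferase of the endoplasmic reticulum, held 0 and 1 against 58 and 11 (-5.11 ± 0.85, adjusted p 8.3e-08 by edgeR). Ccrn4l, a deadenylase-related protein also called nocturnin, held 4 and 2 against 95 and 10 (-3.24 ± 0.57, adjusted p 5.4e-07 by edgeR). Both NSC34 libraries exceeded both motoneuron libraries in all 5 genes. Top2a and Tmtc2 became members and passed the filter almost wholly through their NSC34 counts, so they are given as values. The IgG library from the same cells, scaled to its size, was of similar or greater height for several: 358.3 CPM for Ccrn4l against 208.0 and 100.2 in NSC34, and 137.8 for Top2a against 146.7 and 110.3.

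**Figure D4:**
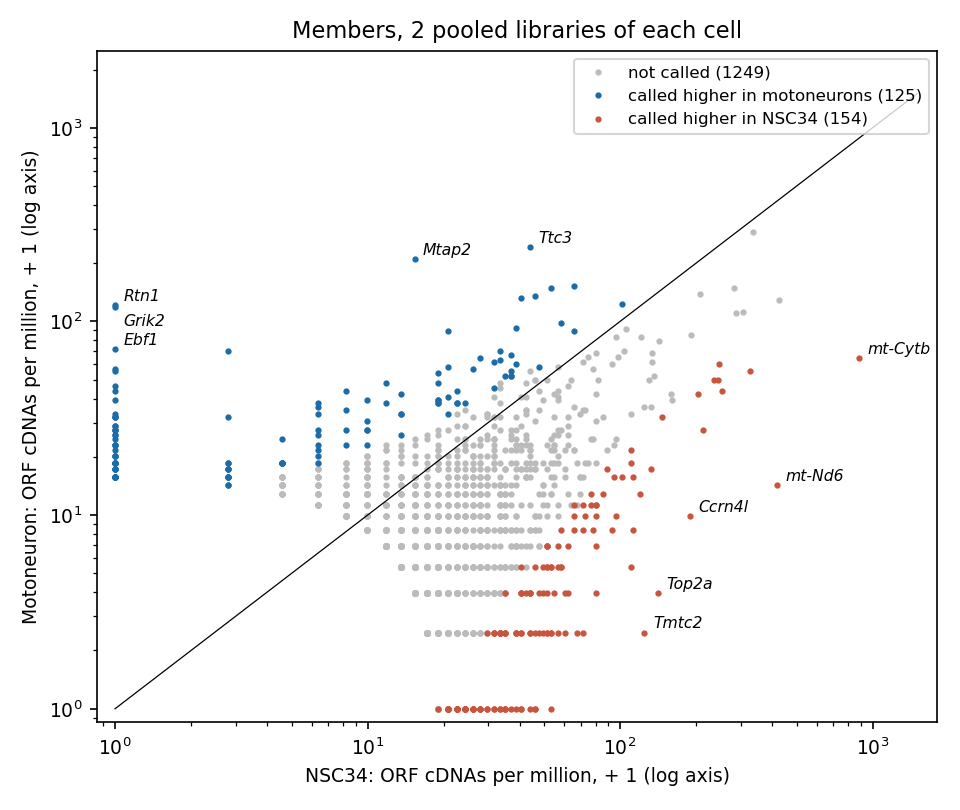
ORF CPM of each member in the 2 pooled motoneuron libraries against the 2 pooled NSC34 libraries, with 1 added to both values (log axes); colours mark members called by edgeR at an adjusted p under 0.05 and the line marks equal values on the scale of library totals. The 125 members called higher in motoneurons lie above the line, and genes with no NSC34 cDNA, such as Rtn1, Grik2 and Ebf1, stand at the left edge.

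As a background for the gene lists below, 154 of the 1528 members and 8.93% of all features were called higher in NSC34. For motoneurons these were 125 of the 1528 and 13.4%. Of 22 members among 40 translation factors, 6 were higher in NSC34 and 0 in motoneurons. The list median was -1.68 (log2) against -0.35 over all members. Pabpc1, the poly(A)-binding protein, held 5, 3, 59 and 7 ORF cDNAs (-2.22 ± 0.58, adjusted p 0.0015 by edgeR). Of 18 chaperone members, 7 were higher in NSC34 and 0 in motoneurons (median -1.62), among them Tcp1 of the CCT chaperonin with 5, 5, 49 and 13 and Hspa5, the BiP chaperone, with 1, 6, 36 and 6. Of 75 ribosomal protein genes, 10 were members (13.3%, against 6.81% of all protein-coding genes), with at most 26 cDNAs. Among genes with an ORF cDNA this was 10 of 49, near the 17.5% of all such protein-coding genes. Of the 10, 3 were higher in NSC34 (median -1.98). Rps3 held 0, 0, 17 and 3, so it became a member through its NSC34 counts alone. All these medians were negative under library totals and DESeq2 too, but DESeq2 called none of the 3 lists' members, and without NSC34 replicate 1 none was called.

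Cell cycle genes had the lowest median of the lists with more than 1 member. Of 6 members, 5 were higher in NSC34: Top2a, Mki67, Ccna2, Cenpf and, named after its values were seen, Bub1. Over both motoneuron libraries Top2a, Mki67, Ccna2 and Cenpf held 2, 1, 2 and 1 ORF cDNAs. These 4 became members and passed the filter almost wholly through their NSC34 counts, so they are given as values. Mki67, the proliferation antigen, held 1, 0, 33 and 4 ORF cDNAs, and Ccna2, cyclin A2, held 1, 1, 36 and 8. The list median was -4.28, and -5.09 under library totals. Without NSC34 replicate 1, 3 of 4 tested members were called, and DESeq2 called 1. The only member among the motoneuron markers was the receptor tyrosine kinase Ret, with 0, 0, 26 and 3 ORF cDNAs. It was at least 11.8-fold higher in NSC34 on the scale of library totals, with a floor of 3 cDNAs over both motoneuron libraries. Ret became a member through its NSC34 counts alone.

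Of 11 microtubule-associated and growth cone members, 4 were higher in motoneurons and 0 in NSC34, with a median of 0.83 that became -0.11 under library totals. They were Mtap2, Gap43, Kif1b and, named after its values were seen, the microtubule protein Dcx with 16 and 13 ORF cDNAs against 0 and 0. Dcx became a member through its motoneuron counts alone. Kif1b, a kinesin that moves vesicles along axons, held 28, 32, 31 and 5 (1.45 ± 0.44, adjusted p 0.0082 by edgeR). Of 8 spectrin, ankyrin and linker members, 3 were higher in motoneurons, namely Ank2, Ank3 and Dmd, and 1, Utrn, was higher in NSC34, with Dmd and Utrn named after their values were seen. Their median of 0.92 became -0.02 under library totals. Pclo, a scaffold of the presynaptic active zone, held 10, 14, 2 and 1 and was the only one of 6 synaptic members called (3.51 ± 0.79, adjusted p 0.00016 by edgeR). Under library totals 3 of the 11 microtubule and growth cone members, 1 of the 8 spectrin and ankyrin members and 1 of the 6 synaptic members were called higher in motoneurons. DESeq2 called 3, 0 and 0 of them, and without NSC34 replicate 1 edgeR called 3, 0 and 0.

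In the 3 lists of RNA-binding proteins below, the members that were called were all higher in NSC34. Of 27 hnRNP genes, 25 had an ORF cDNA and 14 were members, against 17.5% of all protein-coding genes with an ORF cDNA. The rule took high counts, so this is no finding. Of the 14, 1, Pcbp2, was higher in NSC34 with 3, 4, 28 and 8 ORF cDNAs (-1.69 ± 0.65, adjusted p 0.046 by edgeR). That is near the background of 8.93% of all features. Of 17 SR and spliceosome members 5 were higher in NSC34 and 0 in motoneurons, including the helicase Ddx5 with 24, 16, 108 and 29. Of 11 neuronal RNA-binding members only Elavl4, a member through its NSC34 counts alone, was called, which is also near that background. DESeq2 called none of the members of these 3 lists, and without NSC34 replicate 1 edgeR called 1 SR and spliceosome member, 0 hnRNP members and 0 neuronal RNA-binding members. Under library totals 8, 4 and 4 were called, all higher in NSC34. The hnRNP list made up 1.41% and 1.12% of ORF cDNAs in motoneurons, 1.51% and 1.49% in NSC34 and 1.11% with IgG. Pfkp, a phosphofructokinase of glycolysis, was the only one of 3 glycolytic members called, with 37 and 23 against 9 and 2 (3.09 ± 0.54, adjusted p 3.4e-07 by edgeR). Among the other lists, 1 of 11 nuclear-encoded respiratory chain members (Uqcrc2), 1 of 2 tubulins (Tubb5) and 3 of 6 mitotic and nuclear matrix members were higher in NSC34, and 1 of 7 actin-related members (Tpm1) was higher in motoneurons, against 0 higher there and 1 higher in NSC34 under library totals. None of 4 proteasome, 2 14-3-3 and 1 histone members was called by edgeR, and no neurofilament gene was a member.

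Against the IgG library, 7 members differed from NSC34 by edgeR's quasi-likelihood test, 0.458% of 1528, with a background of 0.42% over all features. At an unadjusted p under 0.05 there were 83. The rule favoured genes with many cDNAs in NSC34, so the 4 that were higher with the hnRNP R antibody (background 0.247%) are given as values: Zranb2 with 94 and 21 against 0, Eif4g2 with 206 and 30 against 3, Ogt with 148 and 38 against 3, and mt-Cytb with 436 and 57 against 13. Zranb2 was at least 2.50-fold above the IgG floor of 3 cDNAs, on the scale of library totals. Ogt stood at 324.0 and 380.9 CPM against 82.7, and Eif4g2 at 451.0 and 300.7 against 82.7. The single IgG library lay below both NSC34 libraries in all 4 genes.

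The other 3 members were higher with the single IgG library, where the background was 0.173%, and are given as values. Mtap1b, which encodes the microtubule-associated protein MAP1B, held 70 and 9 ORF cDNAs in NSC34 and 38 with IgG, or 153.3 and 90.2 against 1047 CPM. Hsp90ab1, a cytosolic HSP90 chaperone, held 15 and 4 against 17, and Mki67 held 33 and 4 against 20. Over members 657 had no IgG cDNA, 741 had 1 to 3 and 130 had more than 3. The IgG library held 36280 cDNAs in all, so a member without an IgG cDNA could still have stood at up to 82.7 CPM there. The median log2 difference from IgG was 0.74 over the members' ORF segments and 2.76 over 3UTR features.

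The count of 7 depended on the treatment of the lone IgG library, which was assumed to vary like the other groups. Under library totals 4 members were called, all higher with IgG, and the members' median was 0.00. DESeq2 called 0, and without NSC34 replicate 2 edgeR called 0.

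Fractions were compared over 3 pairs that share cells and antibody, each pair with 1 library number in the headers. Cytoplasmic and nuclear libraries held 194816 and 91302 cDNAs in motoneurons, 3569 and 48398 in NSC34 with antibody 1, and 2796 and 7493 with antibody 2. As a check of the labels, the nuclear RNA Xist made up more of each nuclear library (0.648%, 0.562% and 0.641%) than of its cytoplasmic partner (0.108%, 0.0841% and 0.215%). The noncoding RNA 7SK, which also acts in the nucleus, made up 1.19%, 26.8% and 12.7% of the cytoplasmic libraries and 0.110%, 0.386% and 0.267% of the nuclear ones. MALAT1, another nuclear RNA, was higher in the nuclear library of the motoneuron pair (0.769% against 0.435%) and of the antibody 1 pair of NSC34 (0.262% against 0.112%), and lower in that of antibody 2 (0.280% against 0.322%). Of the 3 RNAs, Xist was higher and 7SK lower in the nuclear library of each pair. In the cytoplasmic NSC34 libraries of antibodies 1 and 2, Xist held only 3 and 6 cDNAs and MALAT1 4 and 9, so these shares rest on few counts. ORF cDNAs of the 1528 members numbered 3532 and 1362 in the motoneuron fractions, 302 and 830 in the first NSC34 pair and 257 and 123 in the second, and 263 members had none in the 6 libraries.

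Coding segments took a smaller part of nuclear than of cytoplasmic libraries in all 3 pairs, by a wide margin only in NSC34. ORF cDNAs of all genes were 2.83% of the cytoplasmic and 2.55% of the nuclear library in motoneurons, 14.1% and 2.81% in NSC34 with antibody 1, and 13.6% and 2.52% with antibody 2. The mean difference, nuclear minus cytoplasmic, was -7.56 percentage points ± 6.31 (SD, n = 3 pairs), with an exact two-sided paired permutation p of 0.25, the smallest that 3 pairs allow. The pooled ORF share of the members against the 3UTR showed no common direction. It was 48.6% in the cytoplasmic and 66.0% in the nuclear library of motoneurons, 58.3% and 60.0% with antibody 1 in NSC34, and 53.7% and 52.1% with antibody 2. The mean difference was 5.84 points ± 10.1 (SD, n = 3 pairs; exact paired permutation p = 0.5) and 0.0676 points without the motoneuron pair. The median of the members' own shares was higher in the nuclear library of all 3 pairs, by 34.5, 16.4 and 40 points (exact paired permutation p = 0.25, the smallest possible), but rested on only 56 and 11 genes in the nuclear and cytoplasmic libraries of NSC34 with antibody 1 and on 2 and 10 with antibody 2. Without mitochondrial members the mean difference in the pooled share was 7.23 points, and with only members that had a 3UTR cDNA it was 7.11, both with an exact paired p of 0.25 and the nuclear library higher in all 3 pairs.

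Gene by gene, 149 members had at least 10 cDNAs over the 6 fraction libraries and were tested with pair as a block. By edgeR 0 differed between fractions, with a background of 0% over 534 features; DESeq2 called 0 as well. At an unadjusted p under 0.05 there were 5 of the 149, a smaller part than that threshold passes on average when no gene differs. All 5 were higher in nuclear libraries, among them Hnrnph1, Ewsr1, Ogt and Pfkp. For Hnrnph1 the nuclear and cytoplasmic counts were 35 and 24 in motoneurons, 17 and 3 with antibody 1 in NSC34 and 8 and 0 with antibody 2 (log2 difference 2.77 ± 0.79, adjusted p 0.26 by edgeR). As a share of the ORF cDNAs of its library this was 1.50% against 0.436%, 1.25% against 0.594%, and 4.23% against 0%. Hnrnph1 thus had the higher nuclear share in 3 of 3 pairs without passing the adjusted test. For the division between ORF and 3UTR, 35 members could be compared between fractions; 0 were called by edgeR against a background of 0%, and 0 had an unadjusted p under 0.05.

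Some members had the same direction in all pairs when counts were taken as a share of the ORF cDNAs of each library. Of the 149, 14 had the higher share in 3 of 3 nuclear libraries and 9 in 3 of 3 cytoplasmic libraries, given as a description. The same count was not made over all features, so neither number can be read as more than random ordering would give. The first set, named after its values were seen, included Ogt with 14 against 33, 16 against 1 and 4 against 1 cDNAs (nuclear against cytoplasmic), Ewsr1, an RNA-binding protein, with 10 against 12, 18 against 0 and 3 against 0, and Camk2d, a calcium-dependent kinase, with 20 against 31, 1 against 0 and 3 against 0. For Ogt the motoneuron shares were nearly equal, at 0.602% nuclear and 0.599% cytoplasmic. Eif4g2 belonged to the second set with 1 against 27, 4 against 2 and 0 against 3. The second set also held 5 mitochondrial members: mt-Cytb, mt-Co1, mt-Nd5, mt-Nd2 and mt-Nd4. Many of these counts in the small NSC34 libraries were between 0 and 4, where counting error alone can set the order.

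Counts were also summed over 20 gene groups. The share of ORF cDNAs was higher in 3 of 3 nuclear libraries for 5 groups and in 3 of 3 cytoplasmic libraries for 4, and for 11 there was no common direction. In 14 groups the Wilson 95% intervals of the fractions overlapped in all 3 pairs. Mitochondrial members made up 0.672% of ORF cDNAs in the cytoplasmic and 0.0860% in the nuclear motoneuron library, 3.96% and 0.442% with antibody 1 in NSC34, and 6.32% and 0% with antibody 2. The last nuclear value, 0 of 189 ORF cDNAs, had a Wilson 95% interval up to 1.99%. Translation factors were also higher in each cytoplasmic library, at 1.02% against 0.645%, 2.18% against 0.515% and 2.63% against 0.529%. The hnRNP genes went the other way, with nuclear shares of 2.11%, 4.49% and 5.82% against cytoplasmic shares of 1.33%, 1.39% and 1.05%. The Wilson 95% intervals of the 2 fractions were apart in all 3 pairs for the mitochondrial members, in both NSC34 pairs for the hnRNP genes and in the antibody 1 pair of NSC34 for translation factors, and they overlapped in the other pairs. Hnrnph1 alone supplied 35 of 49, 17 of 61 and 8 of 11 of the nuclear hnRNP cDNAs, and 24 of 73, 3 of 7 and 0 of 4 of the cytoplasmic ones. Without it the hnRNP share in motoneurons turned to 0.602% nuclear against 0.889% cytoplasmic, and in NSC34 it was 3.24% against 0.792% with antibody 1 and 1.59% against 1.05% with antibody 2. The intervals then overlapped in motoneurons and with antibody 2. Eif4g2 alone supplied 27 of 56 cytoplasmic and 1 of 15 nuclear translation factor cDNAs in motoneurons. Without it that pair also turned, to 0.602% nuclear against 0.526% cytoplasmic, while the NSC34 pairs stood at 0.221% against 1.78% and 0.529% against 1.84%. Ribosomal protein genes stood at 0.344%, 0.884% and 0.529% in nuclear and 0.309%, 0.396% and 0.526% in cytoplasmic libraries, with overlapping intervals in each pair. SR and spliceosome genes had no common direction (nuclear 2.11%, 1.91% and 2.65%, cytoplasmic 1.16%, 2.38% and 1.84%).

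**Figure D5:**
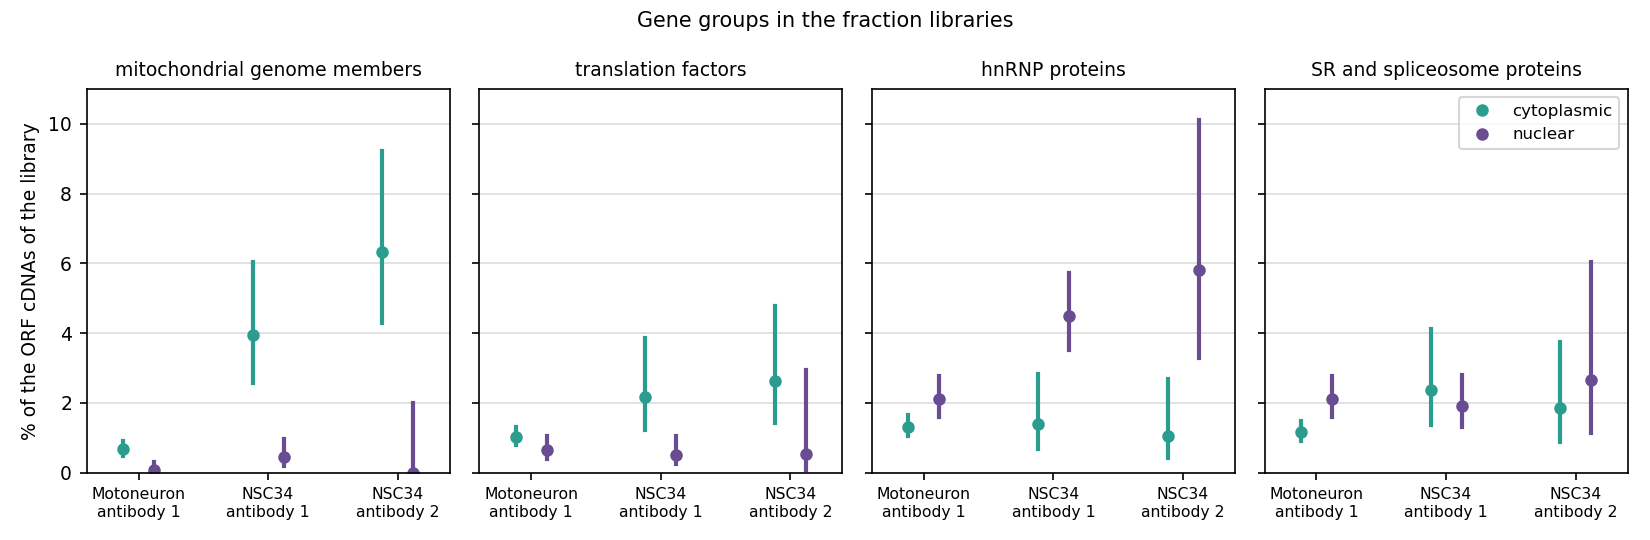
Share of the ORF cDNAs of each fraction library that fell in 4 gene groups, for 3 pairs of libraries; points are 1 library each and lines are Wilson 95% intervals for counting error only. Mitochondrial members and translation factors lie higher in the cytoplasmic library of each pair and hnRNP genes higher in the nuclear one; in motoneurons the order of translation factors rests on Eif4g2 and that of hnRNP genes on Hnrnph1.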

How the data were processed

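Each of the 11 iCLIP libraries was deposited as 1 table with a count of cDNAs per gene and segment (ORF, 3UTR and others) and a density per base of segment. The authors' cDNA counts are whole numbers. Per the file headers they use build mm9 with the genes of Ensembl 59. How reads were trimmed, aligned and collapsed is not stated there. The deposited density, a signal per base, served only to recover segment lengths. Members and gene lists were chosen with earlier results of these data known. A further 1210 per-sample columns were not used.

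ORF and 3UTR counts of every gene with at least 10 cDNAs in a fit were tested together in edgeR 4.0.16 (TMM, quasi-likelihood, Benjamini-Hochberg over all features, calls at an adjusted p under 0.05). One fit held the 5 unfractionated libraries and one the 6 fraction libraries with pair as a block. The pairs were set by the cells and antibody in the titles, and each pair also shares 1 library number in the headers. Division between segments was tested with diffSpliceDGE, and summed shares with exact permutation. DESeq2 1.42.0 was an alternative. Scripts were tested on simulated data. Named genes were the 10 highest by sum and per kilobase, those nearest the threshold, up to 5 called per direction and test, the 5 highest and lowest shares, 4 per list, Hnrnpr and Syncrip. Depth ran from 2796 to 456721 cDNAs, and Wilson intervals and floors of 3 counts cover counting error only. Coordinates are 1-based. One gene that these rules name is not reported here.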

Additional observations from a re-analysis of the deposited data

Results flagged for a closer look

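Antisense cDNAs, counted on the strand opposite to a member's ORF, lie outside the measurements above. With IgG they were 1.43% of the members' ORF cDNAs on both strands (Wilson 95% interval 1.00% to 2.04%), and 7 of the other 10 libraries stood above that value. In 2 of these the interval lay wholly above that of IgG. They were 3.61% in the nuclear motoneuron library (2.76% to 4.71%) and 7.52% in the nuclear NSC34 library of antibody 2 (4.14% to 13.3%), where they numbered 51 and 10. The intervals cover counting error only.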

How the results depend on the processing

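The count of 279 members that differed between cells became 25 with DESeq2, 466 with library totals, 86 without a filter on low counts, 135 with a minimum of 30 cDNAs and 169 among members with at least 20 ORF cDNAs. Leaving out 1 library gave 46 to 200, with fewer features tested, and leaving out IgG gave 272. The replicate block gave 200; the numbers do not pair the libraries, since the deviations of equally numbered replicates correlated at 0.039. The 7 members that differed from IgG became 0 with DESeq2, 4 with library totals, 0 without the filter and 3 at a minimum of 30, and 0 to 3 without 1 NSC34 library. The cause was not tested. No setting called a member between fractions or in the division between segments; a minimum of 30 cDNAs and leaving out the motoneuron pair could not be fitted there. The member count was 3206 at a minimum of 5 and 592 at 20, and 617 to 1353 without 1 library. The share difference between cells ran from -6.11 to -5.54 points without 1 library, and between fractions from 0.0676 to 9.52 without 1 pair. Shares without mitochondrial members, with ORF lengths that are multiples of 3 and with 3UTR cDNAs were added after seeing the data and kept the direction of the mean difference, as did the median of per-gene shares. The sums without Hnrnph1 and Eif4g2 were added later still. The NSC34 fraction libraries, at 2796 to 48398 cDNAs, limit what could be detected.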
